A study of Mus musculus with 28 samples.

Results

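The regions described here are 1416 stretches of accessible chromatin that Müller cells of control and db/db mice shared and that ranked higher in the db/db mice. They were taken from 42625 pairs of regions on chromosomes 1 to 19 that had a single partner in the other genotype. A pair was chosen by its rank: its signal stood at least 20 percentile points higher among the shared regions of the db/db list than among those of the control list. This rule took 3.32% of all pairs, and 1306 pairs (3.06%) stood at least 20 points lower. The first group is called the rising regions and the second the falling regions. Since the signal chose both groups, the size and direction of the change are descriptions and not results.

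ATAC-seq, in which a transposase inserts adapters into open chromatin, was performed on CD29-positive Müller cells sorted with magnetic beads from the retinae of mice aged 6 months. The db/db mice were homozygous for the db mutation of Lepr, the leptin receptor gene, on a BKS background, whereas controls, labelled WT, were by the methods wild-type or db/+ mice of either sex. By the methods this cell fraction may hold a few astrocytes. The paper also states, for these ATAC-seq data, that photoreceptors cannot be kept out of it entirely. Each genotype contributed 1 peak list, attached to its replicate 1, and whether reads of replicate 2 went into a list is not given in the sources used here. A single list on either side allows no test between genotypes, so differences are given with counting intervals alone.

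Müller cells are the radial glia of the retina, which buffer potassium, recycle transmitter and supply neurons. Chromatin opens where transcription factors and polymerase displace nucleosomes. Promoters of broadly used genes are usually open in every cell and often hold CpG-rich sites for SP, ETS and NRF1 factors, whereas enhancers, mostly in introns and between genes, differ more between cell types and states. In glia, factors of the NFI family are well-known binders of such distal elements.

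The sequences are examples of promoters of both groups, chosen in part for the strings they hold, so they do not stand for the groups. All lie upstream of a RefSeq start on GRCm38.p6, outside annotated exons and within 100 bp of the control summit, and run in the direction of the gene. Capitals mark the strings TTGGCA (NFI half-site), GTTGCC (RFX half-site), CCGGAA (ETS) and GCGCANGCG (NRF1) on either strand. Shown first are the rising promoters with such a stretch of at least 100 bases that are named by rank below or that hold the NFI string, in the order of their rise.
Mroh3, chr1:136212885-136213070, minus strand: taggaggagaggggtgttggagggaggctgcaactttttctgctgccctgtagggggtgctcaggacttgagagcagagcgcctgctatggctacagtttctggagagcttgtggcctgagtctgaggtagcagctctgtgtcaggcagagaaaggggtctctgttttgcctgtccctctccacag
Fam183b, chr11:58801961-58802111, minus strand: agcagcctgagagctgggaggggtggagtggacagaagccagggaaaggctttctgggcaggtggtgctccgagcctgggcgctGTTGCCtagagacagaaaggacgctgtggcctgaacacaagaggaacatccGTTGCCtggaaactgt
Gria2, chr3:80802848-80803048, minus strand: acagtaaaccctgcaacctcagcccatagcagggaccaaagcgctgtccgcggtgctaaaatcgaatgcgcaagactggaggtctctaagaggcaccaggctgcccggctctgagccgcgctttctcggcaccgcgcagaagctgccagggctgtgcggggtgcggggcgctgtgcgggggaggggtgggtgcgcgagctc
Ddo, chr10:40629825-40630010, plus strand: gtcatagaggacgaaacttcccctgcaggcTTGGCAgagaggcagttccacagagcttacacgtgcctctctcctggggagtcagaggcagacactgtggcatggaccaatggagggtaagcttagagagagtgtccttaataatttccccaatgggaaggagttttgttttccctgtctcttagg
Mtus2, chr5:147957184-147957319, plus strand: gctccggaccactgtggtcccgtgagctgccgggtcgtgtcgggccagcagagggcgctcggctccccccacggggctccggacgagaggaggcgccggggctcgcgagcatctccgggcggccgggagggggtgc
Trim34a, chr7:104244310-104244456, plus strand: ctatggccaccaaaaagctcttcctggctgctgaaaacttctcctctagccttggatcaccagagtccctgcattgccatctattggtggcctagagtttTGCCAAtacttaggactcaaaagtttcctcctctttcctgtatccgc
Of the 20 rising promoters with such a stretch, 2 held the NFI string and 0 the ETS or the NRF1 string.

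Among 54 falling promoters with such a stretch, 11 held the ETS string, 8 the NRF1 string, 4 the NFI string and 36 neither ETS nor NRF1. As examples of falling promoters with these strings, the 2 with the largest fall for ETS and for NRF1 follow.
Ndufaf1, chr2:119662835-119662964, minus strand: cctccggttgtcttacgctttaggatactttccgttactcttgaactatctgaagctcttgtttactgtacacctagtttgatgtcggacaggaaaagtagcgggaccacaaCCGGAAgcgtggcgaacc
Psmf1, chr2:151741311-151741496, minus strand: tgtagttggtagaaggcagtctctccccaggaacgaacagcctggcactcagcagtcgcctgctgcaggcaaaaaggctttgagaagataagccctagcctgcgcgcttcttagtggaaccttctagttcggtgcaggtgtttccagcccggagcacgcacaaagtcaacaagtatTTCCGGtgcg
Spint2, chr7:29281978-29282124, minus strand: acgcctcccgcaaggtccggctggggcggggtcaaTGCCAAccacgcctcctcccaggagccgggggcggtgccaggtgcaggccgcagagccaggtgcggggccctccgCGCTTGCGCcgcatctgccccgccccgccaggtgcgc
Pnmal2, chr7:16944554-16944681, plus strand: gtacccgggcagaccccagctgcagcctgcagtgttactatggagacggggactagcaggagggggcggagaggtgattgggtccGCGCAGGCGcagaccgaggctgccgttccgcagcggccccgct

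The rising regions came from the lower and middle ranks. Their control percentile had a median of 31.0 and ran from 2.45 to 74.8, and their db/db percentile had a median of 59.1 and ran from 24.8 to 96.3. Of the 1416, 497 started below the 25th percentile of the control list, 681 between the 25th and the 50th, 238 between the 50th and the 75th, and 0 above it. The rise was 20 to 25 points in 733 regions, 25 to 30 in 371, 30 to 40 in 254 and 40 or more in 58, up to 55.3 points. The 3 regions just inside the limit lay at Gm12799, Galp and A530016L24Rik with pileups of 71 and 106, 175 and 234, and 95 and 192 in control and db/db. The 3 pairs just outside it lay at Stk39, Dr1 and Gm47431 with pileups of 508 and 553, 157 and 245, and 122 and 163. All of these rises equal 20 points when rounded, and the limit cuts through a continuous range.

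**Figure D1:**
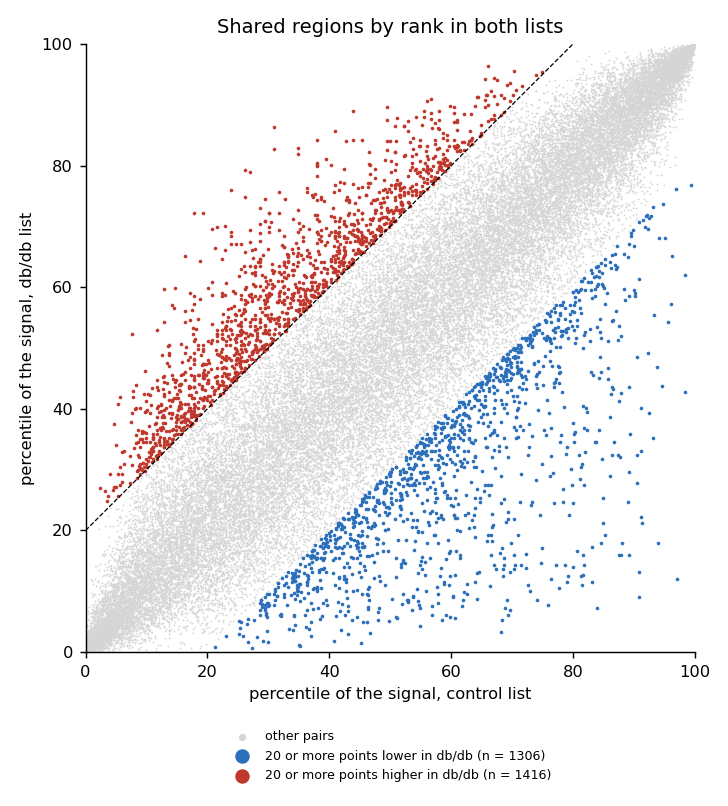
Percentile of the signal of each shared region in the control list (x axis) and in the db/db list (y axis), 1 point per pair. The 1416 rising regions (red) lie above the dashed line at 20 points and start below a control percentile of 74.8, and the 1306 falling regions (blue) reach farther from the diagonal.

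The signal is a fold enrichment: reads piled up over the summit against a local background. The signal and the p-value of each region together gave back whole-number pileups in 42625 of 42625 pairs in both lists, within 0.01 of a whole number, and with them the background. The lowest background, which stands for the genome-wide level, was 10.5 in the control list and 11.8 in the db/db list, a ratio of 1.13 that gives the relative depth of the lists. Pileups of the rising regions were low: the median was 117 in control (58 to 1145) and 182 in db/db (100 to 1337), against 221 and 245 over all pairs. The db/db pileup was 1.54 times the control pileup in the median rising region, with quartiles of 1.43 and 1.68 and a maximum of 2.64, against a median of 1.08 over all pairs. A ratio of 2 or more was seen in 38 rising regions. The falling regions had a median ratio of 0.714 and a lowest ratio of 0.232, so that their range reached farther than that of the rising ones.

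Counting error alone was large at these pileups. The 95% interval of the pileup ratio (Clopper-Pearson) lay above the ratio of the backgrounds in 1061 rising regions, 74.9% of them, against 10.8% of all pairs, but these values come from the contrast that chose the regions and nothing is read from them. It lay below that ratio in 12. The same limit holds for the intervals of single rising regions, and for counts of such intervals, given below. In 18 rising regions the db/db pileup was below the control pileup, and in all 18 the local background was lower in db/db, with a median background ratio of 0.656 against 1.13 over all pairs. Among them were regions near Crx, the photoreceptor homeobox factor, and Tulp1, a tubby-like protein of photoreceptors. At 11509 bp downstream of the start of Crx the pileup was 135 in control and 120 in db/db while the background was 17.6 and 11.8. At the 2 regions upstream of Tulp1 the pileups were 197 and 162, and 220 and 175. For these 18 regions a higher rank does not stand for more reads. Relative to the depth of the lists this holds for more of them: the pileup ratio was above the ratio of the backgrounds in 1380 of the 1416.

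The 20 regions with the largest rise lay mostly away from promoters: 10 were intergenic, 2 intronic, 2 exonic and 6 within 1 kb of a transcription start site (TSS). Their control pileups ran from 73 to 170 and their db/db pileups from 149 to 238, and the region at Ckm was the only one with a control pileup above the lowest db/db pileup. The counting interval lay above the ratio of the backgrounds in all 20, which a choice by the size of the rise favours.

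The largest rise was an intergenic region on chromosome 1, 164235962 to 164236481, 12798 bp upstream of Slc19a2, a thiamine transporter. Its pileup was 97 in control and 227 in db/db, a ratio of 2.34 (counting interval 1.84 to 3.00), and its percentile went from 31.0 to 86.3. Second came a region 2995 bp upstream of the pseudogene Gm49645 with pileups of 80 and 174. The promoter of Lpar3, a receptor for lysophosphatidic acid, held the third largest rise on chromosome 3, 146220631 to 146221247, with pileups of 91 and 194 and percentiles of 26.3 and 79.3. In these 3 regions the counting intervals of both pileups were apart.

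A region 6040 bp upstream of Xdh, the xanthine dehydrogenase of purine breakdown, had pileups of 82 and 174. At Smpd4, a sphingomyelinase, the region 977 bp upstream of the start had pileups of 84 and 183. The region 851 bp downstream of the start of Ckm, the muscle creatine kinase gene, had pileups of 170 and 238, a ratio of 1.40. Its neighbour 1480 bp away, at Klc3, was a falling region with 400 and 163.

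An exonic region of Gle1, an mRNA export factor, had pileups of 88 and 183. The region 17680 bp downstream of the start of Stx2, a syntaxin of membrane fusion, had pileups of 97 and 216. An intronic region of Akap10, an anchor of protein kinase A, had pileups of 108 and 187. At Kcnj9, which encodes a G protein-gated potassium channel, the pileup 4420 bp upstream was 124 and 183. A further 9 of the 20 were at Gm43441, Heatr5b, Gm12240, Gm5259, Gm11350, Tas2r143, Vps13d, Plekha5 and Mroh3, with pileups from 73 to 106 in control and from 149 to 206 in db/db. All ratios among the 20 lay between 1.40 and 2.34.

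**Figure D2:**
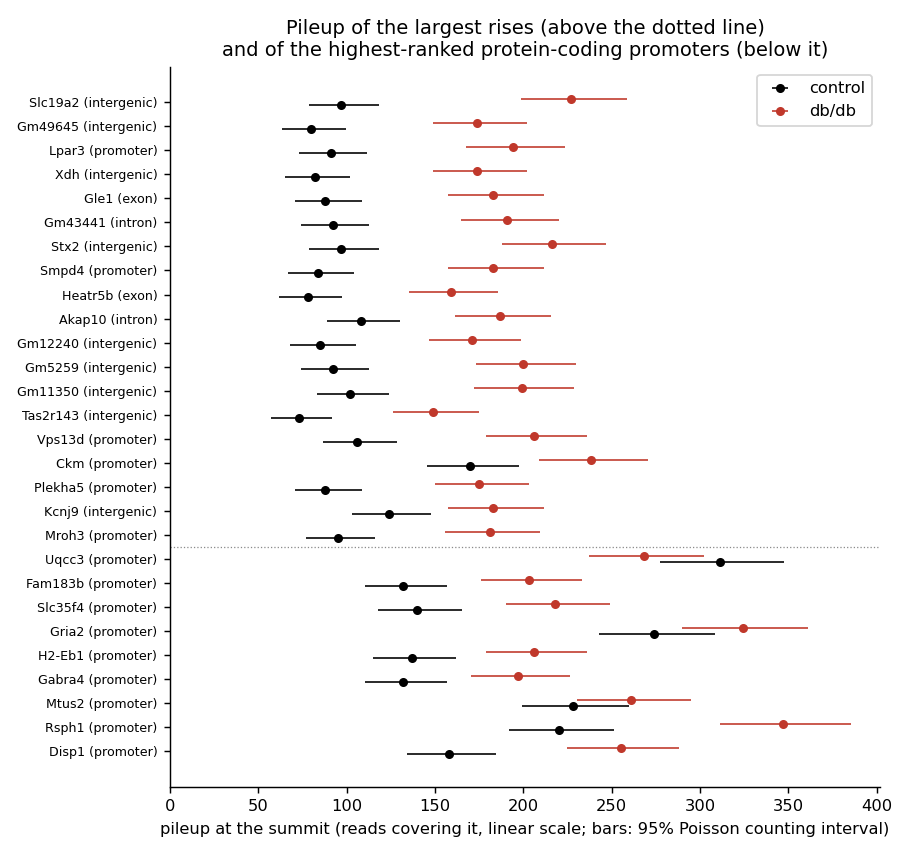
Pileup at the summit in the control list (black) and in the db/db list (red) for 19 of the 20 largest rises and for the highest-ranked rising promoters of protein-coding genes, with 95% Poisson counting intervals. Most pairs of intervals are apart, whereas those of Gria2, Mtus2 and Uqcc3 overlap.

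The rising regions with the highest mean rank stood in the upper ranks of both lists. All 10 had control percentiles between 66.0 and 74.8 and db/db percentiles between 91.6 and 96.3. Their pileups were 149 to 274 and 237 to 324, against medians of 221 and 245 over all pairs, so that by reads they were not strong. An intronic region of Ezh1, a histone H3 lysine methyltransferase, showed the largest rise among them, with pileups of 149 and 270. The region 22247 bp downstream of the start of Ltbp1, a binding protein of latent TGF-beta, had pileups of 167 and 262. In an intron of Cep95, which encodes a centrosomal protein, the pileups were 156 and 291. The other 7 lay at Gm11262, Gria2, Gm14277, Disp1, Gm11945, Gm23623 and Gm21178.

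Of the 225 rising regions within 1 kb of a TSS, 173 had a protein-coding gene at that start, 172 genes in all. The 10 with the highest db/db rank stood at Gria2, Disp1, Slc35f4, Rsph1, Vps13d, H2-Eb1, Fam183b, Uqcc3, Mtus2 and Gabra4. At Disp1, which releases Hedgehog ligands, the pileup was 158 in control and 255 in db/db. At Rsph1, a radial spoke protein of motile cilia, it was 220 and 347. At the MHC class II gene H2-Eb1 it was 137 and 206, and at Gabra4, a GABA-A receptor subunit, 132 and 197. The counting interval lay above the ratio of the backgrounds in 7 of the 10.

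The 3 exceptions were Gria2, Mtus2 and Uqcc3. At Gria2, an AMPA receptor subunit, the pileup was 274 and 324, a ratio of 1.18 (1.00 to 1.39), while the local background was 18.9 and 14.7. At Mtus2 it was 228 and 261, while the background was 18.5 and 15.9. At Uqcc3, an assembly factor of respiratory complex III, the pileup was 311 in control and 268 in db/db, and the background was 27.1 and 16.2. The higher rank of these 3 promoters in db/db went with a lower background and not with a clearly higher pileup.

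Rising regions were scattered over the genome. They had 1355 different genes at the nearest TSS, of which 1298 held 1 rising region, 53 held 2 and 4 held 3. Those 4 were Arid5b, Sgms1, Gm22715 and Gm48176. At Arid5b, an AT-rich interaction domain factor linked to adipose metabolism, the 3 intronic pileups were 185 and 255, 83 and 156, and 63 and 151. At Sgms1, which encodes a sphingomyelin synthase, they were 119 and 122, 103 and 156, and 87 and 123. The first of these did not differ beyond counting error, with a ratio of 1.03 (0.79 to 1.33). The interval of the third, 1.07 to 1.88, includes the ratio of the backgrounds. The 3 regions nearest to Gm22715 lay in an intron of Gse1, and of the 3 nearest to Gm48176 1 lay in an intron of Spock1.

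Position in the genome was not used by the rule and could be compared. Of the rising regions 15.9% (95% Wilson interval 14.1 to 17.9) lay within 1 kb of a TSS, 43.4% (40.9 to 46.0) in introns, 36.4% (33.9 to 38.9) between genes and 4.31% (3.37 to 5.49) in exons farther away. In all other pairs, weighted to the same mean rank of the signal in 10 bins, these shares were 26.9%, 38.9%, 30.7% and 3.51%. Against pairs of the same mean rank, promoters were thus less frequent and introns and intergenic sequence more frequent among regions rising in the rank of the signal. When −log10 p was ranked instead, 18.8% of the regions so chosen were promoters against 19.8%, and the intergenic share turned to the other side, with 30.7% against 33.0%. The intervals cover counting error only, and no comparison was adjusted for the number made.

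The comparison depended on what was held equal. Against other pairs of the same mean pileup, a weighting chosen after seeing the data, the shares to compare with were 18.2% within 1 kb of a TSS, 43.4% in introns and 34.4% between genes. The share of promoters among other pairs then lay just above the interval of the rising regions, and the shares of introns and intergenic sequence lay within it.

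The falling regions differed from the rising ones under either weighting. Of them, 29.2% (26.8 to 31.7) lay within 1 kb of a TSS, above the 26.1% of other pairs of equal mean rank and the 20.4% of those of equal mean pileup. Read the other way, 1.57% (1.38 to 1.79) of all 14312 promoter pairs were rising and 2.66% (2.41 to 2.94) were falling, against 3.32% and 3.06% of all pairs. Of the 11813 intergenic pairs, 4.36% (4.01 to 4.74) were rising.

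The nearest TSS of a rising region was that of a pseudogene in 15.6% (13.8 to 17.6), against 10.6% at equal mean rank and 12.4% at equal mean pileup. It was that of a protein-coding gene in 53.5% against 60.2% and 56.2%. It was that of a long non-coding RNA in 17.9% (16.0 to 19.9), against 17.97% and 19.1%, a difference within counting error.

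Rising regions were narrow and simple in shape. Their median width was 573 bp in control and 612.5 bp in db/db, against 746 and 755 bp over all pairs. A width under 500 bp was found in 38.4% (35.9 to 41.0), against 20.5% at equal mean rank and 31.5% at equal mean pileup. More than 1 summit in the control list was found in 33.0% (30.6 to 35.5), against 51.8% and 42.7%. The summit moved by more than 100 bp between the lists in 2.40% (1.72 to 3.34), against 4.95% and 5.32%. In 48.3% (45.7 to 50.9) the control background stood at the genome-wide level, that is, local coverage did not exceed that level, against 19.03% and 26.6%. In rising regions all 4 features differ from other pairs under both weightings. Width, summits and background come from the same peak call as the signal and are a description. Falling regions lay on the same side at equal mean rank for width (27.3% against 21.4%) and summits (42.6% against 51.1%). Their moved summits (5.05% against 4.86%) and control background (21.8% against 20.6%) were close to other pairs. The db/db background stood at the genome-wide level in 36.6% of rising and 35.3% of falling regions, against 17.8% and 17.9%. At equal mean pileup, other pairs had 29.7% for width and 43.7% for summits beside the falling regions.

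**Figure D3:**
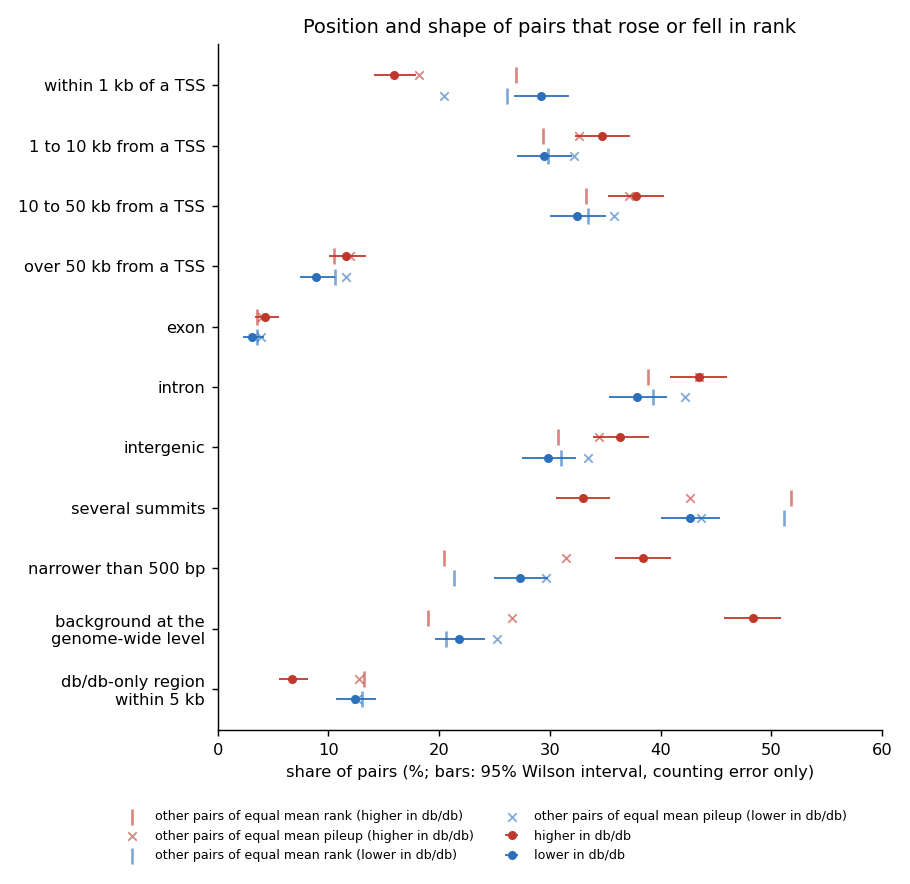
Share of rising (red) and falling (blue) regions with each feature, with 95% Wilson intervals, beside other pairs of equal mean rank (vertical ticks) and of equal mean pileup (crosses). The rising regions lie below the ticks for promoters (15.9% against 26.9%) and for several summits (33.0% against 51.8%), and above them for narrow regions (38.4% against 20.5%).

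Rising regions had few db/db-only regions around them. A region found in the db/db list alone lay within 5 kb of 6.71% (5.52 to 8.13) of them, against 13.2% of other pairs of equal mean rank and 12.4% (10.7 to 14.3) of the falling regions. A control-only region lay within 5 kb of 3.18% (2.38 to 4.23), against 1.25%. The db/db list held 19951 regions without a partner and the control list 1838. Since reads of such a neighbour can enter the local background, on which the signal and so the rule depend, these shares are a description.

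Of the 68 rising regions with another pair within 2 kb, 0 had a rising neighbour and 15 (22.1%) had a falling one, against 2.13% and 1.55% for other pairs of equal mean rank with a neighbour as near. The neighbour's median change was -5.32 points, against 0.293 points over all 4237 pairs with a neighbour within 2 kb. Of those 15 rising regions 11 had a lower background in db/db, and their median background ratio was 0.936 against 1.13 over all pairs. At Lrit2, which encodes a leucine-rich repeat protein of the retina, the rising region had pileups of 145 and 127 and its neighbour 735 bp away had 220 and 80. At Cacna2d4, a subunit of the photoreceptor calcium channel, the pileups were 202 and 234, and those of the neighbour 365 and 153. Whether the loss of reads next door, through the background, sets these ranks was not tested. Within 10 kb 4.09% of 465 neighbours were rising and 8.17% falling, against 2.51% and 2.15% at equal mean rank. Within 50 kb it was 3.32% and 5.45% of 1174, against 3.01% and 2.80%.

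On the chromosomes the share of rising pairs ran from 2.55% on chromosome 4 to 3.90% on chromosome 11, around 3.32% overall. The surroundings of Lepr, the mutated gene, were looked at separately. Lepr lies on chromosome 4, 101717404 to 101815352, and had 0 shared pairs within 5 kb. Within 10 Mb to each side, 12 of 404 pairs were rising, 2.97% (1.71 to 5.12), and 8 were falling. The interval includes the 3.32% of all pairs.

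The string search covered the sequence that could be rebuilt: 118744831 bases of annotated transcripts and 31396 RefSeq promoters, which agreed at all 3193106 bases found in both. At least 50 known bases within 100 bp of the summit were available for 12753 pairs, 217 rising and 326 falling ones, mostly at promoters. Most distal rising regions were not searched. The median GC content of the known bases was 59.7% in rising, 62.2% in falling and 64.7% in all windows. The median number of CpG dinucleotides per 100 known bases was 3.51, 7.46 and 7.96.

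Strings of the ETS and NRF1 factors, typical of CpG-rich promoters of broadly used genes, were rare at rising regions. CCGGAA (ETS) was present in 7 of 217 windows, 3.23% (1.57 to 6.51), against 12.6% in other windows of equal mean rank and known length and 13.1% of equal mean pileup. GCGCANGCG (NRF1) was present in 2 windows, 0.922% (0.253 to 3.30), against 7.21% and 4.98%. With GC content held equal as well as mean rank, the shares to compare with were 12.2% and 5.55%. Falling regions lay on the other side: 20.2% (16.2 to 24.9) held the ETS string against 13.3% at equal mean rank and 14.9% at equal mean pileup. For the NRF1 string it was 14.7% (11.3 to 18.98) against 7.31% and 6.30%. Over all windows the shares were 18.3% for ETS, within the interval of the falling regions, and 9.24% for NRF1. Within promoter windows alone, 4.64% (2.26 to 9.26) of 151 rising windows held the ETS string against 14.4%, and 0.662% (0.117 to 3.66) the NRF1 string against 8.18%. The lower shares of rising regions were therefore also seen in promoter windows taken alone. In falling promoter windows the ETS share was 21.2% (16.7 to 26.4), against 15.7% at equal mean rank and 18.5% at equal mean pileup. The latter lies within the interval. The NRF1 share there was 16.8% (12.8 to 21.7) against 8.69% and 7.75%. Both strings hold CpG dinucleotides, and CpG content was not held equal in any of these comparisons. Its median in promoter windows was 4.98 per 100 known bases in rising, 7.91 in falling and 8.75 in all windows. Whether CpG content sets these shares was not tested. In all RefSeq promoters of 300 bases, the ETS string was found in 15.1% and the NRF1 string in 6.31%.

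The NFI half-site TTGGCA was present in 31 rising windows, 14.3% (10.3 to 19.6), against 8.50% at equal mean rank and 10.1% at equal mean pileup, which lies just outside the interval, and in 6.13% (4.01 to 9.29) of falling windows against 8.67%. At equal mean rank and GC content the share to compare with was 11.03%, which lay within the interval. Over all windows the NFI string was found in 7.62%, and in RefSeq promoters of 300 bases, which are longer than these windows, in 14.1%. GGATTA, the string of the photoreceptor factors CRX and OTX, was frequent in falling windows alone. It was present in 3 rising windows, 1.38% (0.471 to 3.99), against 2.92%, and in 9.51% (6.78 to 13.2) of falling windows against 2.48%.

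For several other strings the share at equal mean rank lay within the interval of the rising regions. The GR string ACANNNTGT, with 2 half-sites 3 bases apart bound by the glucocorticoid receptor, was present in 4 rising windows, 1.84% (0.719 to 4.64), against 2.14%. The AP-1 string TGANTCA was present in 4.61% (2.52 to 8.27) against 3.27%, AGGTCA (nuclear receptor half-site) in 10.6% (7.17 to 15.4) against 7.27%, and GTTGCC (RFX half-site) in 9.68% (6.42 to 14.3) against 7.95%. For the strings of SP/KLF, GGGCGG, the share was 29.5% (23.8 to 35.9) against 43.2% at equal mean rank but 30.3% at equal mean pileup. In all 21 strings and 2 control strings were searched, and the control strings, made from those of AP-1 and CRX/OTX, were found in 3.23% and 1.38% of rising windows. The share of the CRX/OTX string in rising windows thus equalled that of its control string.

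**Figure D4:**
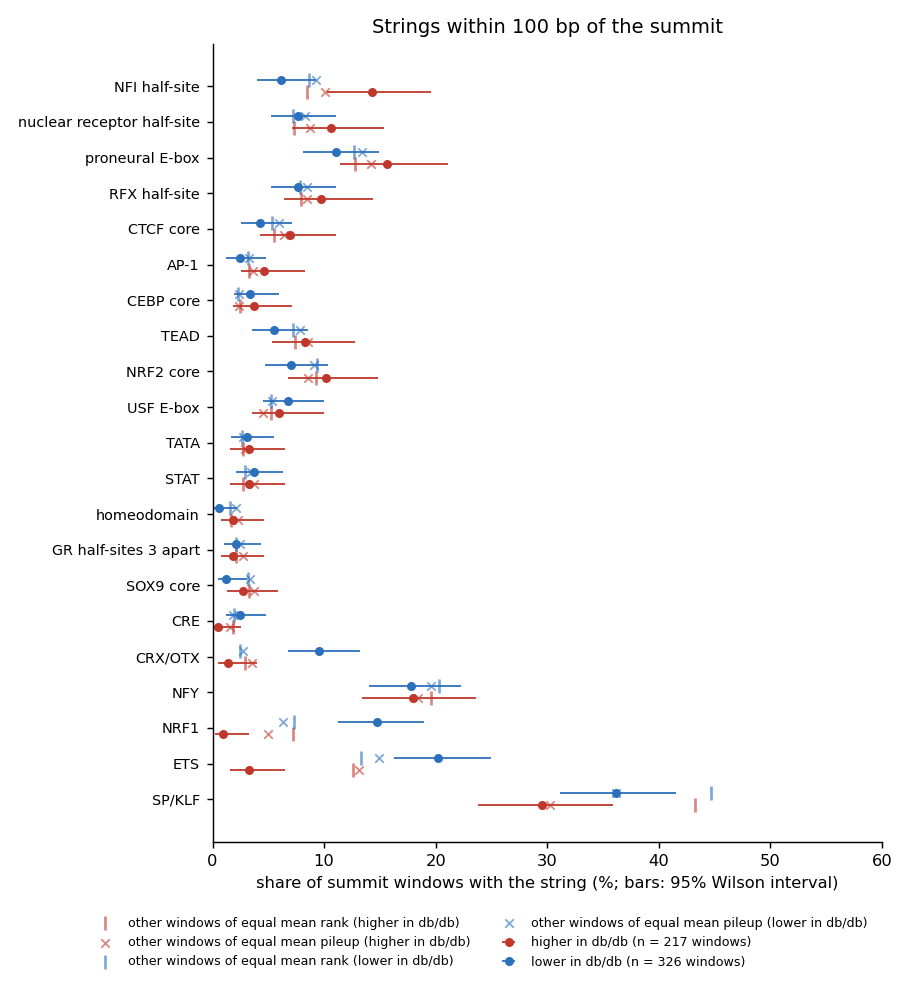
Share of windows of 100 bp to each side of the summit with each string, for rising (red) and falling (blue) regions, with 95% Wilson intervals, beside other windows of equal mean rank (ticks) and equal mean pileup (crosses). The ETS and NRF1 strings lie far below the ticks in rising windows (3.23% and 0.922%) and above them in falling windows (20.2% and 14.7%).

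Genes of known function in the retina were covered by 19 lists with 362 genes, of which 314 had a shared pair within 5 kb. Among their 1005 pairs 23 were rising, 2.29% against 3.32% of all pairs, and 23 were falling. The median change in rank of a list's pairs ran from -3.57 points (rods) to 3.20 points (bipolar cells), against 0.292 over all pairs, and the pairs changed by 10.6 points in SD. The counting interval of this share, 1.53% to 3.41%, includes the 3.32% of all pairs, and no list held more than 4. In 19 of the 23 the counting interval lay above the ratio of the backgrounds.

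The labelled cell type was checked on promoters. Of 15 Müller cell markers 13 had a shared region within 1 kb of a TSS that was nearest to them, all but Abca8a and Glul, and the summed pileup of these regions was 9568 in control and 10206 in db/db. Of 15 rod markers 7 had one, not including Nr2e3 or Pde6b, and their summed pileup was 2764 and 1660. Of 14 microglial markers 2 had one, with 745 and 743 in all, and neither Cx3cr1 nor Csf1r did. For astrocytes it was 5 of 8 (1495 and 1916), for bipolar cells 5 of 12 (2261 and 2174), for endothelial cells and pericytes 6 of 15 (1736 and 1938), for retinal pigment epithelium 7 of 10 (3154 and 3435), for amacrine, horizontal and ganglion cells 7 of 17 (3586 and 4115), and for cones 3 of 8 (1501 and 1281). Promoters of some marker genes of other retinal cells were thus open in both lists. Their summed raw pileup was lower in db/db for rods, cones and bipolar cells, and nearly equal for microglia. These sums, those of the Müller cell markers included, are not scaled by the relative depth of the lists (1.13). Equal raw sums therefore mean fewer reads relative to depth in db/db, and a slightly higher sum need not mean more. The median percentile of the 7 rod pairs was nevertheless 10.3 in control and 15.7 in db/db. Which cells these reads came from, and their part in the ranks, was not tested.

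At the 15 Müller cell markers 1 of 48 pairs was rising, in an intron of Kcnj10, the potassium channel Kir4.1 of Müller cells. Its pileup was 209 in control and 332 in db/db, a ratio of 1.59 (1.33 to 1.90). At bipolar cell markers 2 of 39 pairs were rising, both in introns of Trpm1, the cation channel of ON bipolar cells, with pileups of 283 and 498 and of 223 and 281. The counting interval of the second, 1.05 to 1.51, includes the ratio of the backgrounds. At rod markers 2 of 26 pairs were rising and 4 falling. The rising ones lay in introns of Cngb1, a subunit of the rod cyclic nucleotide-gated channel, with pileups of 161 and 250, and of Pde6b, the rod phosphodiesterase subunit, with pileups of 95 and 110. The latter did not differ beyond counting error, with a ratio of 1.16 (0.87 to 1.54). At Gad2, the glutamate decarboxylase of inhibitory neurons, a promoter had pileups of 78 and 145. At Fgfr3, an astrocyte marker, a promoter had pileups of 140 and 263.

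For vascular and matrix genes the counting intervals of the shares include the 3.32% of all pairs. Of 35 pairs at endothelial and pericyte markers 2 (5.71%, counting interval 1.58 to 18.6) were rising, an intronic region of the VEGF receptor Flt1 with pileups of 90 and 171 and one of Cspg4 (NG2) with pileups of 172 and 281. Of 96 pairs at genes of extracellular matrix and adhesion 4 (4.17%, 1.63 to 10.2) were rising and 1 was falling, with a median change of 1.61 points. These 4 lay at basement membrane genes and at an adhesion receptor. At an internal annotated start of Col4a1 the pileup was 229 and 392. In introns of Col4a2, Lama1 and Cd44 it was 107 and 164, 99 and 150, and 229 and 329. Of 48 pairs at gliosis genes 2 were rising, the region of Cd44 and an intronic region of Osmr, the oncostatin M receptor, with pileups of 129 and 183.

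At metabolic genes 2 of 112 pairs of the glucose and insulin list and 3 of 70 of the lipid list were rising. The promoter of Slc2a1, which encodes the glucose transporter GLUT1, had the most reads of all rising regions, 1145 in control and 1337 in db/db, a ratio of 1.17 (1.08 to 1.26), and the local background was 109 and 101. This interval includes the ratio of the backgrounds. At the promoter of Pkm, the pyruvate kinase gene, the pileup was 211 and 273, and the interval of the ratio (1.08 to 1.56) includes it as well. The lipid genes were Cd36, a fatty acid receptor, with pileups of 86 and 147 at a promoter, Fdft1, the squalene synthase gene, with 197 and 334 at its promoter, and Acaca, the acetyl-CoA carboxylase gene, with 90 and 138 in an intron.

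Of 170 pairs at Notch, Wnt and progenitor genes 3 were rising, in introns of Notch2 with pileups of 95 and 204, of Lgr5 with 91 and 146, and of Nfib with 209 and 333. Of 45 pairs at inflammation genes 1 was rising, in an intron of Vcam1, an endothelial adhesion molecule, with pileups of 120 and 223. At hypoxia and angiogenesis genes it was the region of Flt1 again. At the genes of the glucocorticoid receptor and its targets 0 of 110 pairs were rising, against 3.32% of all pairs, and 1 was falling, with a median change of 0.109 points. The counting interval of this share, 0 to 3.37%, includes the 3.32%. This count of 0 depended on the ranking: 5 of the 110 were rising with ranks by −log10 p, 4 with ranks by pileup and 6 at a limit of 15 points. At AP-1 and immediate early genes 0 of 47 (interval 0 to 7.56%) and at clock genes 0 of 86 pairs (0 to 4.28%) were rising. Both intervals include 3.32% as well. Cones with 14 pairs, microglia with 21 and retinal pigment epithelium with 14 had 0 rising pairs as well.

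**Figure D5:**
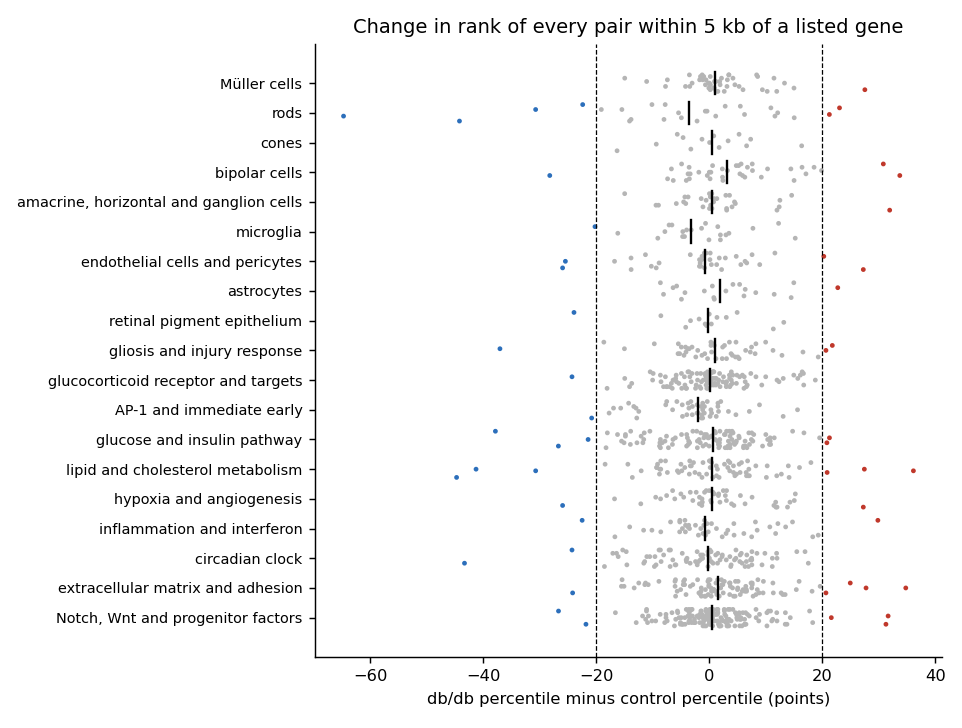
Change in rank of every pair within 5 kb of a gene of each list, in percentile points (x axis), with the list's median (black bar), rising regions in red and falling ones in blue. Rising regions number 4 at most per list, and list medians stay between -3.57 and 3.20 points.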

How the data were processed

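ATAC-seq libraries of Müller cells were analysed as 1 peak list per genotype. Each row deposited by the authors gives a peak's score. It also gives its fold enrichment over background (a ratio), called the signal here, in a deposited column of its own. Significance was deposited on the −log10 scale, for p and for q. The submitters' processing notes name the build mm10. The peak caller, its threshold and the pooling of replicates are not given in the sources used here.

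From the lists, overlapping rows were merged, keeping the row with the highest signal, and regions that overlapped exactly 1 region of the other list were paired. Percentiles were taken over the shared regions of a list (43360 control, 43647 db/db). Pileup and background were solved from the deposited signal, (pileup + 1)/(background + 1), and the deposited −log10 p, taken as a Poisson tail. Whole pileups came back in 100% of pairs. They served as descriptions, with no count test. Positions used the control summit and GENCODE M21 (GRCm38). In that annotation 33.1% of control summits lay within 1 kb of a TSS, and 9.35% after a shift of 5 kb. A genome sequence was not used here. A few items are not reported here. Regions named are the 20 with the largest rise, the 10 with the highest mean rank, the 10 promoters with the highest db/db rank, genes with 3 or more rising regions, those at listed genes, and those at the limit. Members and lists were chosen with earlier results of these data known. Alternatives were other thresholds, rankings, overlaps, filters, annotations and weightings. The solving of pileups, the pairing by rank and the weighting to equal mean rank were tested on simulated data, and the other steps were not. Scripts ran under Python 3.11.15 with pandas 2.3.3, scipy 1.17.1 and numpy 2.4.6. Depth in reads is unknown, and all intervals cover counting error only.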

Additional observations from a re-analysis of the deposited data

How the results depend on the processing

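No paired analysis was possible because both peak lists are attached to replicate 1 and there is 1 list per genotype. For the same reason no replicate could be left out. Of the alternative values for the main results, 74 stayed within the counting interval or within 1.5 times the count, 34 moved beyond it and 3 that differed from other pairs by more than their interval turned direction. For single lists and the other strings, 168 values stayed and 102 moved. The number of rising regions (1416) was 2899 at 15 points, 312 at 30 points, 7120 with ranks over all regions of a list, 2572 with the signal summed over merged rows, and 647 with ranks by pileup, of which 367 were among the 1416. The share within 1 kb of a TSS was 13.8% at 30 points (26.4% at equal mean rank), 19.1% with ranks over all regions (25.9%), 18.8% with ranks by −log10 p (19.8%), 25.0% with summed signal (27.6%), 18.7% with ranks by pileup (19.4%), 12.3% for protein-coding TSS (23.5%) and 12.5% within 500 bp (23.5%). The intergenic share was 39.7% at 30 points, 32.3% with ranks over all regions and 30.9% with summed signal. It turned below that of other pairs with ranks by −log10 p (30.7% against 33.0%) and by pileup (30.6% against 33.3%). The intronic share was 46.1% with −log10 p and 40.1% with summed signal, and lay just below that of other pairs at equal mean pileup (43.4% against 43.4%). The exonic share for protein-coding TSS was 5.51%. Several summits were found in 38.4% at 15 points, 26.0% at 30, 43.3% with ranks over all regions, 36.6% with −log10 p and 39.4% with pileup. Near Lepr the share was 7.67% at 15 points (6.801% of all pairs), 0.495% at 30 (0.732%), 18.1% with ranks over all regions (16.7%), 6.93% with summed signal (6.03%) and 1.73% with pileup (1.52%). At listed genes it was 5.47%, 0.697%, 17.7%, 6.07% and 1.49% in the same order against the same shares, and 3.08% with −log10 p (2.71%). Both shares thus follow that of all pairs and lie on either side of it. In windows of 250 bp to each side the NFI string was in 22.1% (15.2%) and the ETS string in 9.36% (17.6%). In these wider windows the control string of AP-1 was in 11.2% (interval 7.98 to 15.6) against 6.91%. That of CRX/OTX was in 4.49% against 6.23%. A control string thus also lay above other windows by more than its interval, and nothing is read from the NFI share there. With ranks by pileup or −log10 p the share of promoters thus came close to that of other pairs. The cause was not tested. Ranks by pileup, equal mean pileup and promoter windows alone were chosen after seeing the data. The depth of the lists limits every single region.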

Other observations

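Genes of the ciliary axoneme appeared among the rising promoters. This group was picked after the values had been seen, so its counts support nothing. Taken by symbol (Cfap, Rsph, Drc, Dnah, Dnai, Dnaaf and Tekt), 66 protein-coding genes had 34 shared promoter pairs, of which 4 were rising (Cfap43, Cfap53, Drc1 and Rsph1) and 1 was falling (Cfap69). Over all 14312 promoter pairs 1.57% were rising. Of the 46 pairs of these genes farther from a TSS, 2 (4.35%) were rising and 3 (6.52%) falling, against 3.32% and 3.06% of all pairs. The median change of the 34 pairs was 0.225 points, against -0.63 points over all promoter pairs, so that most of them stayed near the middle. At Cfap43 the pileup was 102 in control and 175 in db/db, a ratio of 1.72 (counting interval 1.34 to 2.21). At Drc1, a subunit of the nexin-dynein regulatory complex, it was 98 and 148. At Cfap53 it was 85 and 145. Outside the rule on symbols, rising promoters were also found at Spag1 with pileups of 123 and 175, Efhb with 103 and 144, Wdr66 with 95 and 156, and Fam183b with 132 and 203, all linked to motile cilia. They were picked because they rose, and cilia genes outside the rule that did not rise were not counted. The counting intervals of Spag1 (1.12 to 1.81) and Efhb (1.08 to 1.82) include the ratio of the backgrounds. Which cells these reads came from was not tested.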
